A study of Canis lupus familiaris with 8 samples.

Results

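Transcripts of cytokines, chemokines, their receptors, leukocyte surface proteins, the major histocompatibility complex of the dog and their transcription factors were compared between the left ventricle of diabetic and control dogs. The members were all probe sets of the Affymetrix Canine Genome Array, other than the manufacturer's controls, whose 1 annotated gene symbol begins with the letters of these families (IL, CCL, CCR, CXCL, CXCR, TNF, IFN, TLR, CD, CSF, DLA, the complement components, C1Q, NFKB, IRF and STAT, each followed by its number where the family has one) or is LYZ. CD36, a fatty acid transporter, and CD2AP, a cytoplasmic adaptor, were left out. This gave 193 probe sets of 118 genes, of 10549 probe sets of 6540 genes with 1 symbol, and all 193 were tested without a filter on level. The letters also took in 16 probe sets of 8 products that are named after these families without belonging to them, such as TNFAIP1, and these are given apart.

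Hearts came from 8 male mongrel dogs, which are outbred, and each dog had its own array. The control dogs D5, D6, D7 and D8 had received no alloxan. The DM dogs 0292, 0294, 1087 and 1111 had been given alloxan, which kills the beta cells of the pancreas that make insulin, at 40 to 60 mg/kg intravenously, and entered the study with a fasting blood glucose above 200 mg/dl on day 7. In the study some dogs had a second injection when the first left glucose low, and the sources used here do not say which. Hearts of DM dogs were taken 4 weeks after alloxan. The labels give 23 to 27 kg for every dog and no age, and both groups belonged to a study in which dogs were first fitted with instruments for hemodynamic recordings. The agent reaches the whole animal, so diabetes and any direct effect of alloxan cannot be told apart in this design. The purpose was to ask which cardiac transcripts differ in alloxan-induced type 1 diabetes.

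Cytokines and chemokines are secreted proteins through which immune, vascular and muscle cells signal to each other, and their receptors stand on the surface of the responding cells. Toll-like receptors sense microbial products and released cell contents, and they signal through NF-kappa-B, while interferons and many interleukins signal through STAT and IRF proteins. The heart holds resident macrophages and smaller numbers of other leukocytes, whose surface proteins carry many of the CD numbers, while other CD proteins stand on muscle, endothelial and stromal cells as well.

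Values are log2 signals after quantile normalization and addition of 16, and a difference is the mean of the DM dogs minus the mean of the control dogs, with its standard error (SE) from limma and 4 dogs per group. Dogs were taken as the replicates. Every p is two-sided, and adjusted p values are from limma with Benjamini-Hochberg adjustment over 23836 probe sets. The criteria of the methods, which the study's statistics state, are at least a 2-fold change with a nominal P that does not exceed 0.01 in a two-class test. Levels were compared within a probe set and not between probe sets, whose probes differ.

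Arrays differed between the groups and within them. The medians of the deposited signals ran from 96.1 to 177 for controls and from 113 to 317 for DM dogs. The hybridization controls, which are added to the labelled sample in fixed amounts, had a mean log2 signal of 13.09 to 13.36 in D5, D6 and D7, of 15.77 in D8 and of 15.17 to 17.72 in DM dogs. D8 and 0292 had the lowest mean correlation with the other arrays of their group (0.776 and 0.549). The other control arrays had 0.863 to 0.865 and the other DM arrays only 0.633 to 0.656. The sources used here name no array batch or scan date, so batch and diabetes cannot be told apart here. Counts are also given without D8 and 0292, the least typical array of each group. Leaving them out does not separate batch from diabetes. The hybridization controls are then fully apart, at 13.09 to 13.36 in control dogs and 15.17 to 16.26 in DM dogs. Of the heart muscle markers looked up, 10 of 14 were on the array with 1 symbol and MYH7, the slow ventricular myosin heavy chain, had 15.61 to 16.50 in all 8 dogs so heart muscle transcripts were present in every sample. All 10 had a lower mean in DM dogs, with a median difference of -1.91, and the part of this shift in the differences below was not tested.

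No member passed limma's adjusted p of 0.05, and the lowest adjusted p was 0.0638, in LYZ. Over all probe sets 4 of 23836 passed, or 0.0168%. At an unadjusted p of 0.05, 16 members were higher in DM dogs, where 7.79% of all probe sets were, and 17 were lower, where 8.97% were. The criteria of the methods were met by 5 members that were higher and by 5 that were lower, against 2.44% and 2.48% of all probe sets. The dogs of both groups did not overlap in 9 members that were higher (4.93% of all probe sets) and in 9 that were lower (5.87%). Since 5 of 193 is close to 2.44%, and 9 is close to 4.93%, the members were called about as often as the rest of the array. After Benjamini-Hochberg adjustment of the methods' test, 0 members and 21 of all probe sets passed. Without D8 and 0292, calls were more frequent over the whole array. Then 9 members (4.66%) passed limma's adjusted p, against 3.88% of all probe sets, and 3 higher (1.55%) and 8 lower members (4.15%) met the criteria of the methods, against 4.58% and 3.49%.

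The members as a whole leaned to neither side by much. In 109 of 193 probe sets the mean of the DM dogs was higher and in 84 it was lower (56.5% higher, against 51.9% of all probe sets). The median difference was 0.18, against 0.06 over all probe sets. With arrays centred on their medians in place of quantile normalization it was -0.10, beside -0.25 for all probe sets. With arrays scaled to the hybridization controls it was -1.51, beside -1.65.

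**Figure D1:**
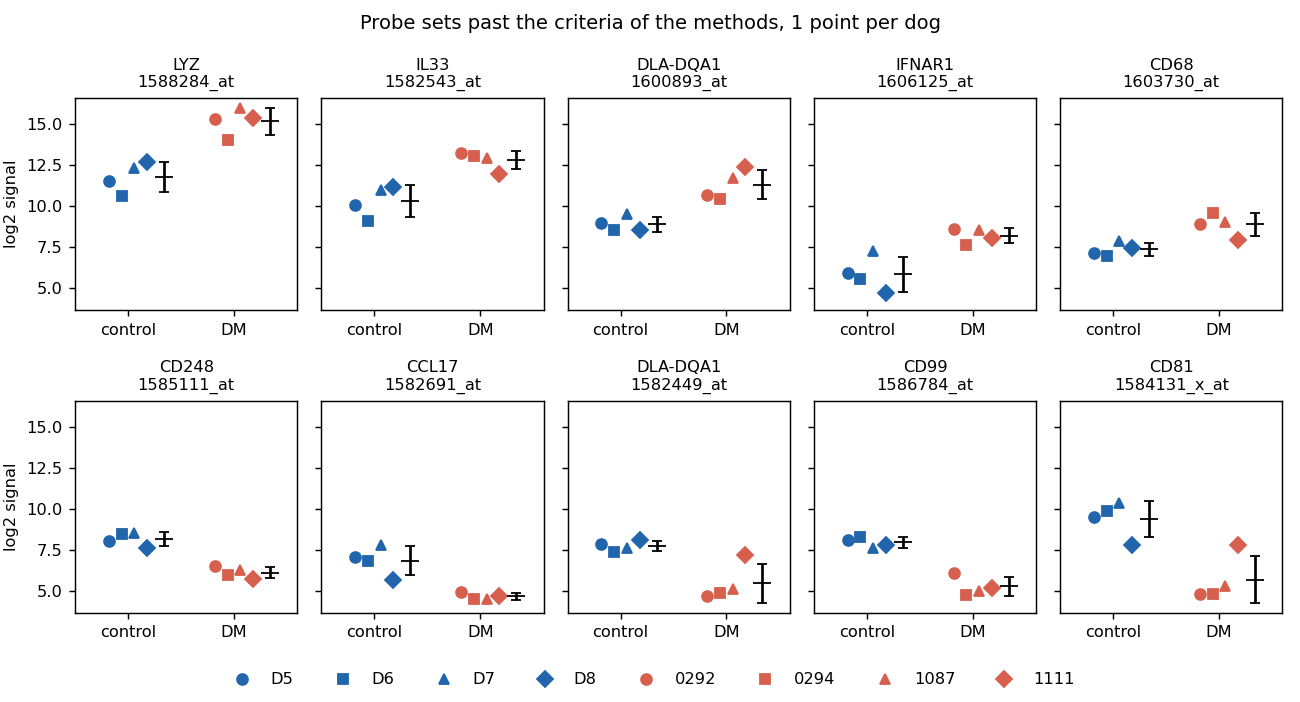
The log2 signal of each dog is plotted on the vertical axis for the 10 probe sets that met the criteria of the methods, with control dogs at the left and DM dogs at the right of each panel. Horizontal marks and bars are the mean and SD of 4 dogs. The groups are apart in every panel but that of CD81, where DM dog 1111 at 7.81 lies just above control dog D8 at 7.79.

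Lysozyme, the bacteria-degrading enzyme that monocytes, macrophages and neutrophils secrete, had the largest difference among the probe sets that were higher. LYZ (1588284_at) had 11.51, 10.65, 12.31 and 12.68 in D5, D6, D7 and D8, and 15.28, 14.02, 16.00 and 15.34 in 0292, 0294, 1087 and 1111. No DM dog overlapped a control dog, and 1087 was the highest and D6 the lowest of the 8 dogs. The difference was 3.37 (SE 0.67), or 10.4-fold (adjusted p = 0.0638 from limma), and the deposited signals ran from 1884 to 6957 in control dogs and from 23466 to 121223 in DM dogs. It was 3.40 without D8 and 0292, where the adjusted p from limma was 0.0361. D8 was the control dog nearest to the DM dogs, so that p gives no support of its own. When the arrays were scaled to the hybridization controls the difference was 1.24.

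Complement proteins are a chain of plasma and tissue proteins that mark and lyse targets, and none of their probe sets met the criteria of the methods or an unadjusted p of 0.05. With lysozyme they made 18 probe sets of 8 genes, of which 14 were higher in mean, with a median difference of 0.50. Without D8 and 0292 only 10 were higher, with a median of 0.082, and under scaling to the hybridization controls the median was -1.27. C3, the component on which all activation routes meet, had 6 probe sets with differences from -0.62 to 0.85. C2, a protease of the classical and lectin routes, had 5 probe sets, of which the largest difference was 1.91 (SE 0.89) in 1587934_s_at. C1QA and C1QC, subunits of the recognition molecule of the classical route, had 0.32 and -1.10. Several of these directions turned with 1 dog left out, and C3 (1583409_s_at) had 0.51, or -0.60 without D8.

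Among the cytokines 20 of 29 probe sets of 19 genes were higher in mean in DM dogs, with a median difference of 0.68. That median was 0.23 with cyclic loess and 0.40 with median centring, and it turned to -0.82 when arrays were scaled to the hybridization controls, where the medians of all classes were below 0. Only IL33, an alarmin of the interleukin 1 family that is stored in the nuclei of stromal and endothelial cells and released on damage, met the criteria of the methods. IL33 (1582543_at) had 10.06, 9.09, 10.96 and 11.17 in D5, D6, D7 and D8, and 13.21, 13.05, 12.90 and 11.98 in 0292, 0294, 1087 and 1111. All DM dogs were above all control dogs, with 1111 closest to them. The difference was 2.47 (SE 0.64), or 5.53-fold (adjusted p = 0.101 from limma), and 2.75 without D8 and 0292. It was -0.076 when arrays were scaled to the hybridization controls.

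IL1B, the secreted interleukin 1 beta of activated macrophages, had 7 probe sets and all 7 were higher in mean in DM dogs, with differences from 0.18 to 1.77. Their mean signals were low, at 5.48 to 6.60, within bins 1 and 2 of 5 equal bins of mean signal. In those bins 71.1% and 62.1% of all probe sets had a higher mean in DM dogs. The 7 probe sets are also not independent, since 5 of them were designed from 1 source sequence. The largest was 1583022_x_at, with 6.52, 4.72, 4.68 and 4.63 in D5, D6, D7 and D8, and 8.04, 6.04, 6.91 and 6.64 in 0292, 0294, 1087 and 1111. Control dog D5 lay within the range of the DM dogs and the other control dogs lay below it. Its difference was 1.77 (SE 0.67; adjusted p = 0.214 from limma), and it was the only probe set of the gene with an unadjusted p under 0.05. IL1RN, the antagonist that occupies the same receptor, had 1.50 (SE 0.83), and IL1A had 0.16 (SE 0.83). Under scaling to the hybridization controls 5 of the 7 IL1B probe sets were lower in mean.

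Of the other classical inflammatory cytokines, TNF, IL6, IL10 and IFNG differed by less than or about their standard error. Many of the values given here for TNF, IL6, IFNG and IL4 lay near the bottom of the scale that the offset leaves. A difference may go unseen there. TNF, tumor necrosis factor, had a difference of -0.025 (SE 0.61), and its 8 values lay between 4.54 and 6.20. IL6 had 0.68 (SE 1.00), which rested on 0294 at 9.70, since the other DM dogs had 4.48 to 5.76 and the control dogs 4.75 to 6.17, and it was -0.51 without 0294. IL10, an inhibitory cytokine, had -0.22 (SE 0.81). IFNG, the interferon of T and natural killer cells, had -0.84 (SE 0.74), with 7.10 in 0292 and 4.79 to 5.04 in the other DM dogs. IL4, a cytokine of type 2 helper T cells, had groups that did not overlap in 1582395_at, with 4.74 to 4.92 in control dogs and 5.26 to 5.81 in DM dogs, but its difference of 0.75 (SE 0.53) was below 2-fold and its other probe set overlapped. IL2, IL5, IL12A, IL12B, IL13, IL15, IL18 and CSF2 had differences of -0.73 to 1.03 in 10 probe sets, and 0 of these had an unadjusted p under 0.05.

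Chemokines, which direct the migration of leukocytes, leaned to neither side as a group, with 9 of 15 probe sets of 12 genes higher in mean and a median difference of 0.27. CCL17, an attractant of T cells that carry CCR4, had 7.07, 6.82, 7.78 and 5.68 in D5, D6, D7 and D8, and 4.94, 4.52, 4.52 and 4.72 in 0292, 0294, 1087 and 1111. All DM dogs were lower, D8 stood nearest to the DM dogs, and the DM values lay near the bottom of the scale that the offset leaves. The difference was -2.17 (SE 0.61), or 4.49-fold lower in DM dogs (adjusted p = 0.117 from limma), and it was -1.18 with an offset of 64. It was -2.55 without D8 and 0292, with an adjusted p of 0.0344 from limma. Those were the control and the DM dog nearest to each other, so the larger value without them gives no support of its own. CCR4 itself had 0.83 (SE 0.86).

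CXCL8, interleukin 8, the main attractant of neutrophils, divided the DM dogs. Its probe set 1582463_at had 7.73, 4.94, 8.02 and 7.76 in D5, D6, D7 and D8, and 5.02, 12.21, 10.94 and 12.32 in 0292, 0294, 1087 and 1111. DM dogs 0294, 1087 and 1111 were above every control dog, whereas 0292 was as low as D6, the lowest control. The difference was 3.01 (SE 1.37; adjusted p = 0.289 from limma), and without D8 and 0292 it was 5.22 (adjusted p = 0.0276 from limma). That setting leaves out 0292, the DM dog that went against the difference, so its larger value gives no support of its own. The second probe set of CXCL8, 1582462_at, had a difference of 0.46 (SE 0.78), with 6.00 in 0292 and 7.59 to 8.51 in the other DM dogs. CXCR2, a receptor of CXCL8 on neutrophils, had 0.048 (SE 0.65).

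CCL2, the attractant of monocytes, had 7.68 to 8.57 in control dogs and 7.36 to 9.78 in DM dogs, with a difference of 0.38 (SE 0.64). CCL14 had the second lowest difference of the chemokines, -1.52 (SE 0.88). CCL3, CCL4 and CCL5, attractants of monocytes and T cells, had -0.49, 0.27 and -0.39, each smaller than its standard error. The interferon-induced CXCL10 had -0.23 (SE 0.60). The 4 probe sets of the chemokine receptors CCR3, CCR4 and CXCR2 had differences from -1.19 to 0.83, and 0 had an unadjusted p under 0.05.

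**Figure D2:**
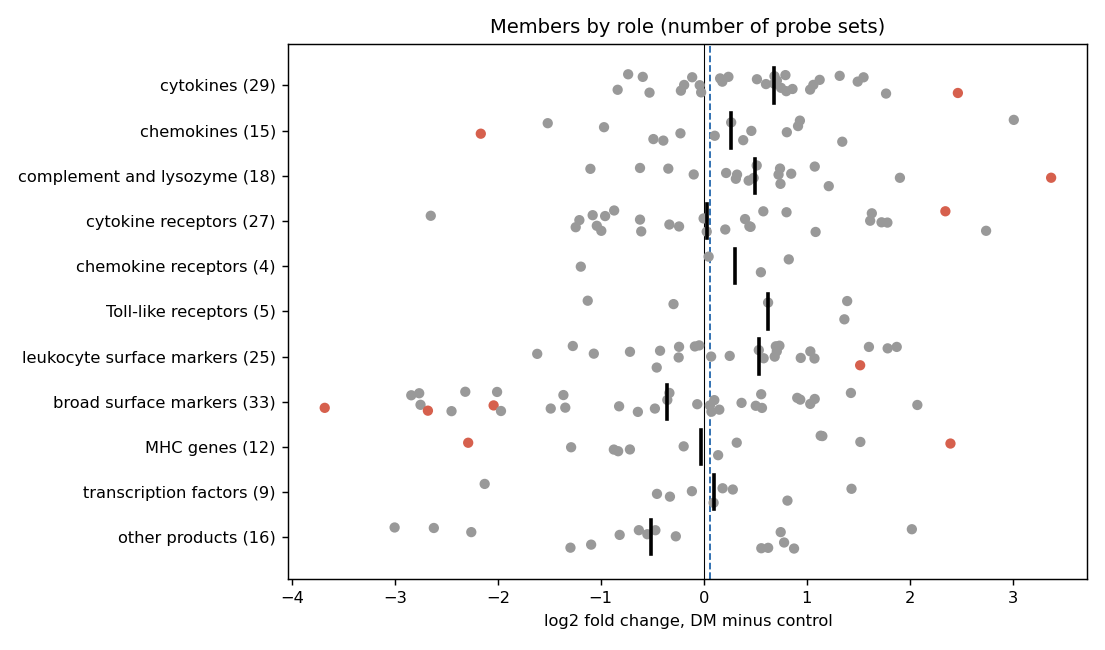
Each point is a probe set, placed along the horizontal axis by its log2 difference between DM and control dogs and along the vertical axis by its role, with the number of probe sets in brackets. Black bars are the medians of the roles, the dashed line is the median of all 23836 probe sets (0.06) and red points met the criteria of the methods. Medians ran from -0.51 in the products that only share letters with the families to 0.68 in cytokines.

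The receptors of cytokines split evenly, with 14 of 27 probe sets of 19 genes higher in mean in DM dogs and a median difference of 0.03. IFNAR1, a chain of the receptor for type 1 interferons, had 5.90, 5.55, 7.27 and 4.69 in D5, D6, D7 and D8, and 8.59, 7.62, 8.53 and 8.06 in 0292, 0294, 1087 and 1111. The groups did not overlap and D7 was the control dog nearest to the DM dogs. The difference was 2.35 (SE 0.66), or 5.09-fold (adjusted p = 0.117 from limma). It was 1.78 without D8 and 0292 and 0.46 under scaling to the hybridization controls, and the criteria of the methods were lost with any dog but D7 left out.

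IL1R2, the decoy receptor that binds interleukin 1 without signalling, had 7.94, 7.73, 8.41 and 5.03 in D5, D6, D7 and D8, and 10.92, 8.74, 10.55 and 9.87 in 0292, 0294, 1087 and 1111 in probe set 1585542_at. The groups did not overlap, although 0294 was close to D7. Its difference was 2.74 (SE 0.80; adjusted p = 0.128 from limma), which missed the nominal P of the methods with a P of 0.0228. The second probe set of IL1R2 had 1.63 (SE 0.88). IL2RA, the high-affinity chain of the interleukin 2 receptor, had 4.59 to 5.17 in control dogs and 5.68 to 7.64 in DM dogs, without overlap, and a difference of 1.78 (SE 0.62).

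IFNGR2, a chain of the interferon gamma receptor, differed in the other direction in 1 of its 2 probe sets. In 1585169_at it had 11.63, 10.05, 11.98 and 9.67 in D5, D6, D7 and D8, and 8.40, 8.71, 6.26 and 9.36 in 0292, 0294, 1087 and 1111. The highest DM dog, 1111, lay just below the lowest control dog, D8. The difference was -2.65 (SE 0.79; adjusted p = 0.134 from limma), whereas the second probe set, 1592311_at, had -0.0012 (SE 0.74). CSF1R, the receptor for the growth factor of macrophages, had 3 probe sets with 1.73, 0.44 and -1.21. IL6ST, the signalling chain shared by the interleukin 6 family, had -1.24 (SE 0.78), and TNFRSF1A, the main receptor of TNF, had 0.40 (SE 0.92).

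Toll-like receptors were represented by TLR4 and TLR9. TLR4, the receptor for bacterial endotoxin, had 5.32, 7.23, 7.17 and 7.60 in D5, D6, D7 and D8, and 8.42, 7.35, 8.03 and 9.09 in 0292, 0294, 1087 and 1111. Only D8 was higher than any DM dog, namely 0294, and D5 was far lower than the other control dogs. The difference was 1.39 (SE 0.68; adjusted p = 0.320 from limma). The 4 probe sets of TLR9, the sensor of bacterial DNA, ran from -1.13 to 1.37.

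Markers borne mainly by leukocytes had 15 of 25 probe sets of 18 genes higher in mean, with a median difference of 0.53. The median was 0.15 without D8 and 0292, 0.045 with median centring and -1.57 under scaling to the hybridization controls. CD68, a lysosomal protein of macrophages, was the member of this class that met the criteria of the methods. It had 7.15, 6.98, 7.88 and 7.47 in D5, D6, D7 and D8, and 8.94, 9.60, 9.05 and 7.97 in 0292, 0294, 1087 and 1111. The groups did not overlap, but 1111 lay just above D7. The difference was 1.52 (SE 0.59), or 2.87-fold (adjusted p = 0.222 from limma), and it was -0.52 under scaling to the hybridization controls.

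CD163, the hemoglobin scavenger receptor of macrophages, had 9.54, 10.23, 11.31 and 9.98 in D5, D6, D7 and D8, and 12.93, 9.28, 12.78 and 12.48 in 0292, 0294, 1087 and 1111. DM dogs 0292, 1087 and 1111 were above all control dogs, and 0294 was below them. Its difference was 1.60 (SE 0.82; adjusted p = 0.349 from limma). CD86 and CD80, which costimulate T cells on antigen-presenting cells, had 1.79 (SE 0.76) in CD86, and 1.87, -0.46 and -1.27 in the 3 probe sets of CD80. CD14, the endotoxin co-receptor of monocytes, had 7.44 to 7.92 in D5, D6 and D7 but 4.79 in D8, and 8.49 in 1111 but 4.80 to 5.65 in the other DM dogs. Its difference of -1.07 (SE 0.93) thus stood beside low and high dogs in both groups.

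Markers of T cells gave no difference beyond their spread. CD3D and CD3E, chains of the T cell receptor complex, had -0.086 (SE 0.78) and -0.24 (SE 0.65). CD4 had -0.42 and 0.69 in its 2 probe sets, and CD8A had 0.74 (SE 0.61) with 4.85 to 6.92 in DM dogs and 5.14 to 5.75 in control dogs. CD28 had 0.70 (SE 0.71). The largest difference of the T cell marker list was in LCK, 0.99 (SE 0.69), with 4.86 to 6.65 in control dogs and 5.63 to 8.14 in DM dogs.

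Taken as a marker list, 11 of 13 genes of macrophages and monocytes were found with 1 symbol, and 9 had a higher mean in DM dogs with a median difference of 0.80. Of these, LYZ, CD68 and MARCO had an unadjusted p under 0.05 and LYZ and CD68 met the criteria of the methods. CD163, MRC1, FCGR1A, ITGAM, CYBB and AIF1 were higher by 0.52 to 1.60, each with an unadjusted p of limma above 0.05. CSF1R, by the probe set used for the list, and CD14 were lower, at -1.21 and -1.07. Under scaling to the hybridization controls 1 of 11 had a higher mean, and under each other alternative that tested all 11 the count was 9. The summed signal of the list was 5321 to 11253 in control dogs and 19921 to 78226 in DM dogs, of which LYZ made the larger share in DM dogs. Without LYZ the sum was 2591 to 6203 and 3370 to 12717, with overlap between the groups. For T cells 6 of 11 genes were found, with 3 higher and 3 lower and 0 at an unadjusted p of 0.05, and their summed signal was 471 to 582 in control dogs and 378 to 1035 in DM dogs. Of the markers of neutrophils 2 of 8 were found (ELANE 0.79, CXCR2 0.048) and of red blood cells 0 of 5, so S100A8, S100A9 and HBB have no value here. In heart tissue a change in the number of cells of a type and a change in RNA per cell cannot be told apart. The part of either in the results for LYZ, CD68 and IL1B was not tested.

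Surface proteins that many cell types carry were lower in DM dogs more often than higher. Of 33 probe sets of 14 genes 19 were lower in mean, with a median difference of -0.35, and 1 was higher and 10 were lower at an unadjusted p of 0.05, against 7.79% and 8.97% of all probe sets. The 10 come from 6 genes, CD34, CD47, CD81, CD99, CD151 and CD248. With only the upper part of levels, 9 of 22 were lower and 1 was higher at this p, against 14.9% and 7.76% of all probe sets there. The class was drawn up with earlier results of these data known, so these shares are not a test of it. The median difference of the class stayed below 0 under every alternative run for it, from -2.55 under scaling to the hybridization controls to -0.14 without 1087. Markers of cells that carry some of these proteins were lower in part as well. Of the genes listed for smooth muscle and pericytes, 3 of the 4 found were lower in mean (median difference -1.39). DES had -2.52, TAGLN -1.85 and MYH11 -0.93, whereas ACTA2 was higher at 0.40. Whether DES reports smooth muscle or heart muscle here was not tested. The summed signal of the list was 4506 to 7973 in control dogs and 3257 to 5639 in DM dogs. Endothelial markers were lower in 4 of 6 (median -0.77), with TIE1 at -2.05, but FLT1 had 2.10 and TEK 1.10. Their sums were 24002 to 40017 and 10508 to 43171, and PECAM1 had by far the highest signal of them. Fibroblast markers were lower in 4 of 6 (median -0.72), with DCN at -1.83 and FBLN1 at -1.54, but POSTN had 1.71 and COL1A2 1.24. Their sums were 5188 to 42465 and 9739 to 30295. The part of these cell types in the results for CD34, CD99 and CD248 was not tested. The class of surface proteins holds 3 of the 5 members that were lower by the criteria of the methods.

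CD248, endosialin, a surface protein of pericytes and fibroblasts, had 8.03, 8.48, 8.52 and 7.61 in D5, D6, D7 and D8, and 6.52, 5.99, 6.26 and 5.72 in 0292, 0294, 1087 and 1111. All DM dogs lay below all control dogs, and D8 and 0292 were the nearest to each other. The difference was -2.04 (SE 0.56), or 4.11-fold lower in DM dogs (adjusted p = 0.111 from limma), and CD248 met the criteria of the methods under all 16 alternatives run for it. It was -1.51 with an offset of 64, and -2.30 without D8 and 0292, with an adjusted p of 0.0400 from limma. That setting leaves out the control and the DM dog nearest to each other, so its larger value gives no support of its own.

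CD99, an adhesion protein of leukocytes, endothelium and other cells, was lower in mean in all 4 of its probe sets, by -1.49 to -2.75. In 1586784_at it had 8.10, 8.30, 7.59 and 7.81 in D5, D6, D7 and D8, and 6.10, 4.77, 5.02 and 5.20 in 0292, 0294, 1087 and 1111. All DM dogs were below all control dogs, with 0292 nearest to them and the other DM dogs near the bottom of the scale. The difference was -2.68 (SE 0.57), or 6.40-fold lower in DM dogs (adjusted p = 0.0723 from limma), and it met the criteria of the methods under all 15 alternatives run for it. Its size depends on the offset, and it was -1.75 with an offset of 64. In the other 3 probe sets D8 lay within the range of the DM dogs, such as 6.55 in 1586640_at where the other control dogs had 10.26 to 11.02.

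CD81, a tetraspanin that is widespread on cell surfaces, had the largest difference of all members in 1 of its 7 probe sets. In 1584131_x_at it had 9.50, 9.87, 10.33 and 7.79 in D5, D6, D7 and D8, and 4.81, 4.83, 5.31 and 7.81 in 0292, 0294, 1087 and 1111. The groups met at D8 and 1111, and the other dogs were widely apart, with 0292, 0294 and 1087 near the bottom of the scale. The difference was -3.68 (SE 0.81), or 12.8-fold lower in DM dogs (adjusted p = 0.0752 from limma), and it was -4.37 without 1111 (adjusted p = 0.0244 from limma). Dog 1111 was the DM dog nearest to the control dogs, so the larger value without it gives no support of its own. The fold depends on the offset, and with 64 in place of 16 the difference was -2.73. Of the 7 probe sets 6 were lower in mean, but 4 of these differed by -0.82 or less in size, and 1585234_x_at had 1.03 with 13.57 in 0292. The ending _x_at marks probe sets with probes that can also match other transcripts, and 6 of the 7 carry it, so the gene's own level is uncertain.

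CD47, the signal that protects cells from being engulfed, was lower in mean in all 3 of its probe sets (2 from 1 source sequence). In 1593129_s_at it had 12.77, 12.91, 13.12 and 11.61 in D5, D6, D7 and D8, and 9.04, 8.24, 9.89 and 11.88 in 0292, 0294, 1087 and 1111. DM dog 1111 lay above D8, and the other DM dogs lay below every control dog. The difference was -2.84 (SE 0.78; adjusted p = 0.112 from limma), and in 1593131_s_at, where the groups did not overlap, it was -2.76 (SE 0.82). CD34, on endothelial and progenitor cells, had 4 probe sets from -2.45 to 1.08, and CD151, a tetraspanin that binds laminin receptors, had -2.01 and 2.07 in probe sets that each had an unadjusted p under 0.05.

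CD59, which protects cells from complement, had differences of 0.060, 0.075, 0.15 and 0.37 in its 4 probe sets. In 3 of them the 8 dogs lay between 11.05 and 12.37, and in 1594000_at they spread from 4.62 to 8.82. CD9, a tetraspanin, had groups that did not overlap, with 12.79 to 13.53 in control dogs and 13.55 to 14.90 in DM dogs, at a difference of 0.91 (SE 0.57) that was below 2-fold. CD44, a hyaluronan receptor, and CD63, a tetraspanin of lysosomes, had 0.56 (SE 0.58) and -1.36 (SE 0.78).

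**Figure D3:**
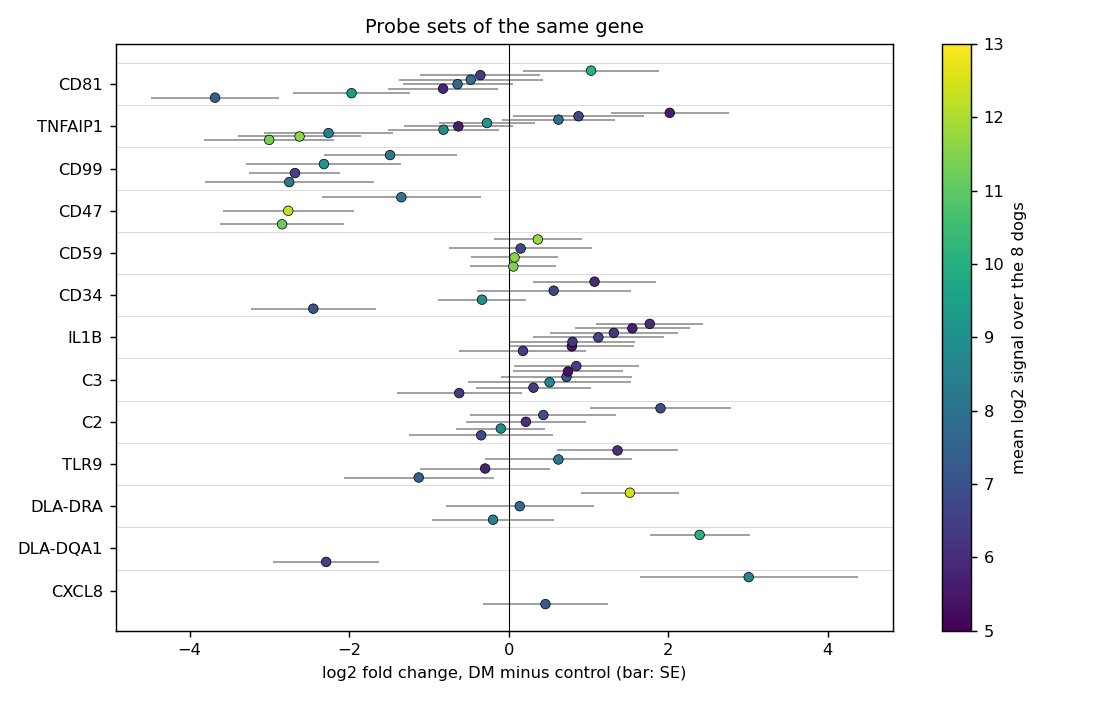
Log2 differences between DM and control dogs are plotted with their SE for all probe sets of 13 genes with several probe sets, 1 row of points per gene. The colour is the mean log2 signal of the probe set over the 8 dogs. All probe sets of CD99, CD47 and IL1B lie on 1 side of 0, and those of DLA-DQA1, CD34 and TNFAIP1 lie on both sides.

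Class 2 molecules of the dog leukocyte antigen complex present peptides to helper T cells, and their gene DLA-DQA1 gave opposite results in its 2 probe sets. In 1600893_at it had 8.99, 8.55, 9.53 and 8.57 in D5, D6, D7 and D8, and 10.67, 10.46, 11.71 and 12.37 in 0292, 0294, 1087 and 1111. In 1582449_at it had 7.86, 7.40, 7.60 and 8.12 in the control dogs, and 4.69, 4.86, 5.10 and 7.19 in the DM dogs, in the same order. The groups did not overlap in either, with all DM dogs above the control dogs in the first and below them in the second.

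The differences were 2.40 (SE 0.63; adjusted p = 0.101 from limma) and -2.29 (SE 0.66; adjusted p = 0.127 from limma), and both met the criteria of the methods. These values therefore give no direction for the gene. The first was -0.024 under scaling to the hybridization controls, and the second, with 3 DM dogs near the bottom of the scale, was -1.43 with an offset of 64. DLA-DRA, the alpha chain of another class 2 molecule, had 1.52 (SE 0.61) in 1583667_s_at, with 11.34 to 12.65 in control dogs and 12.34 to 14.01 in DM dogs, and 0.14 and -0.19 in its other probe sets. The class 1 genes DLA88 and DLA-79 were lower in mean in all 3 of their probe sets, by -0.83, -1.29 and -0.87, each with an SE of 0.76 to 0.79 and with overlap.

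Transcription factors and inhibitors of these pathways had 5 of 9 probe sets higher in mean, with a median difference of 0.10, and none met the criteria of the methods. IRF2, a factor that binds interferon response elements, had 8.61, 8.42, 8.59 and 7.63 in D5, D6, D7 and D8, and 5.84, 4.85, 5.43 and 8.63 in 0292, 0294, 1087 and 1111. DM dog 1111 was at the level of the highest control dogs and the other DM dogs were below all of them. The difference was -2.13 (SE 0.79; adjusted p = 0.204 from limma), and without 1111 it was -2.94 (adjusted p = 0.0405 from limma). Since 1111 was the DM dog that went against the difference, the larger value without it gives no support of its own. STAT4, which signals for interleukin 12, had 1.44 (SE 0.66) with D5 within the range of the DM dogs. STAT3, STAT6, IRF3, IRF9 and NFKBIA, the inhibitor that holds NF-kappa-B in the cytoplasm, had 0.18, 0.28, -0.11, -0.33 and -0.45, each smaller than its standard error.

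Proteins that share letters but not function with the families had 10 of 16 probe sets lower in mean. TNFAIP1, which is induced by TNF and takes part in protein ubiquitination, had 9 of these probe sets, 3 higher and 6 lower. In 1592783_s_at it had 13.01, 13.12, 13.02 and 12.12 in D5, D6, D7 and D8, and 7.46, 9.68, 10.41 and 11.72 in 0292, 0294, 1087 and 1111. The groups did not overlap, and D8 and 1111 were the nearest to each other. That difference was -3.00 (SE 0.81; adjusted p = 0.110 from limma), while 1596770_at had 2.02 (SE 0.74). Without these 16 probe sets, 103 of the remaining 177 were higher in mean and the median difference was 0.22.

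Genes of the surrounding pathways that are not members were looked up in lists. Of 28 adaptors and kinases of NF-kappa-B and Toll signalling 3 had a probe set with 1 symbol, and all 3 had a higher mean (median difference 1.61, but -0.56 under scaling to the hybridization controls). TAB2, an adaptor of the kinase TAK1, had 10.28 to 11.09 in control dogs and 11.80 to 12.47 in DM dogs, with a difference of 1.61 (SE 0.55) that met the criteria of the methods. TIRAP, an adaptor of TLR4, had 2.003 (SE 0.86) and TRAF3 had 1.14 (SE 0.72).

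Of 20 JAK-STAT kinases and inhibitors 6 were found, 3 higher and 3 lower, and PTPN11, a phosphatase of receptor signalling, met the criteria of the methods with 1.70 (SE 0.61). SOCS5 had 0.73 (SE 0.63). Of 30 interferon-induced genes 11 were found, with 7 higher and 4 lower and a median difference of 0.75 (0.23 without D8 and 0292, and -1.57 under scaling to the hybridization controls), and 2 higher and 1 lower at an unadjusted p of 0.05. These were OAS2 (1.61, SE 0.64) and MX2 (1.64, SE 0.74), which act against viruses, and TAP1 (-2.20, SE 0.68), the peptide transporter of class 1 presentation. Of 14 adhesion and recruitment genes 10 were found, 4 higher and 6 lower, with ITGB2, the beta chain of the leukocyte integrins, at -1.99 (SE 0.73) and JAM3 at -1.62 (SE 0.75). Of 19 complement regulators and receptors 5 were found, 2 higher and 3 lower, with SERPING1, the C1 inhibitor, at -2.12 (SE 0.84) and C1R at -0.77 (SE 0.66). None of these genes passed limma's adjusted p, and the lowest adjusted p in the 5 lists was 0.142.

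**Figure D4:**
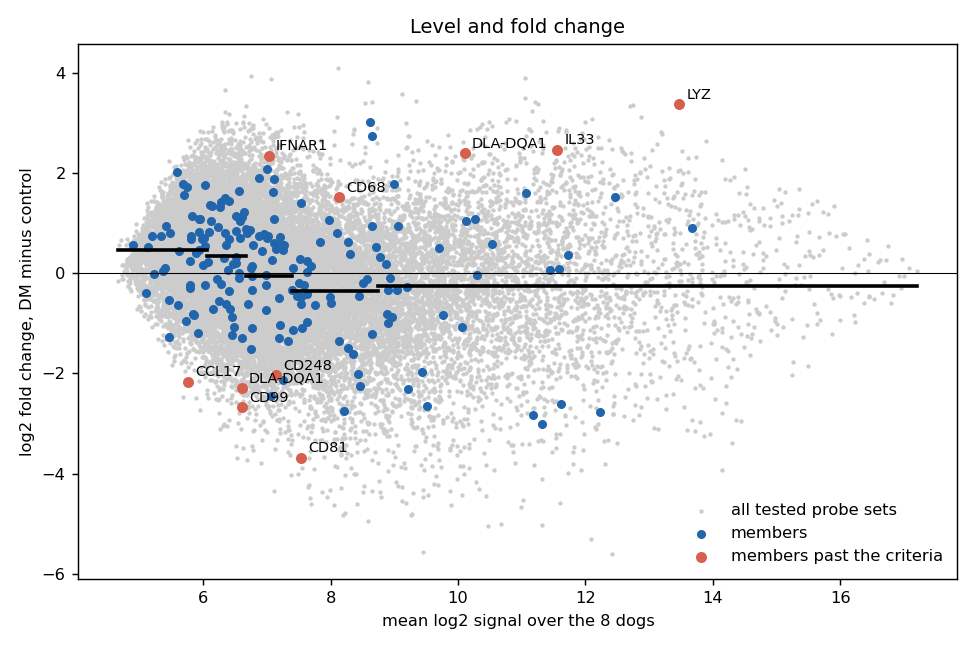
Each probe set is placed by its mean log2 signal over the 8 dogs (horizontal axis) and its log2 difference between DM and control dogs (vertical axis), with all tested probe sets in grey, members in blue and members that met the criteria of the methods in red. Black bars are the medians of all probe sets in 5 equal bins of the mean signal, which go from 0.47 in bin 1 to -0.26 in bin 5.

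Over the whole array the difference moved with the signal, and the members followed this in the lowest pair of bins and in bin 4 but not in bins 3 and 5. In the lowest of 5 equal bins of mean signal the median difference was 0.47 over all probe sets and 0.49 over 40 members. In bin 2 it was 0.35 and 0.32 (41 members), and in bin 3 it was -0.065 and 0.45 (38 members). In bin 4 it was -0.36 and -0.28 (40 members), and in bin 5 it was -0.26 and 0.0078 (34 members). Cytokines lay low on this scale, at a median percentile of 26.8 of all mean signals, and broad surface proteins lay at a median percentile of 67.3. The positive median of the cytokines and the negative one of the broad surface proteins stand beside this lean of the whole array, and the part of signal level in them was not tested.

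Of the 35 genes with several probe sets, 15 had all of them on 1 side of 0 and 20 had them on both sides, and 83 genes had 1 probe set. Agreement in direction was complete in IL1B (7), CD99 (4), CD59 (4) and CD47 (3), and 1 probe set went against the others in CD81 (6 of 7) and C3 (5 of 6). In IL1B 5 of the probe sets, and in CD47 2 of the 3, were designed from 1 source sequence, so these are not independent. The IL1B probe sets lay at low signal, where most probe sets of the whole array had a higher mean in DM dogs.

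**Figure D5:**
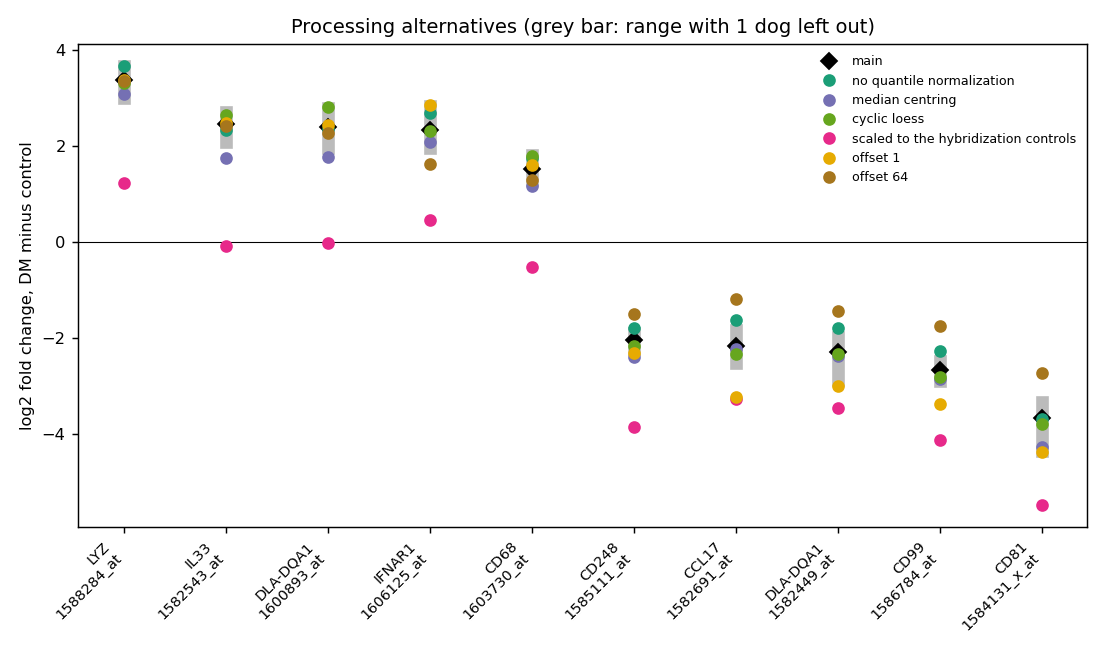
For the 10 probe sets that met the criteria of the methods, the log2 difference between DM and control dogs is plotted under each processing alternative, with the value as reported as a black diamond. Grey bars are the range when each dog was left out in turn. The 5 lower probe sets stay below 0 in every setting, whereas IL33, DLA-DQA1 (1600893_at) and CD68 lie at -0.076, -0.024 and -0.52 when arrays are scaled to the hybridization controls.

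Directions of the leading members were kept in every alternative run for LYZ, IFNAR1, CD248, CCL17, CD99, CD81 and DLA-DQA1 (1582449_at). The criteria of the methods held less well than the directions. LYZ met them in 15 of 16 alternatives, CCL17 in 13 of 15, CD81 in 9 of 16, IL33 in 9 of 16, DLA-DQA1 (1600893_at) in 8 of 16, CD68 in 7 of 16 and IFNAR1 in 5 of 16. DLA-DQA1 (1582449_at) met them in 4 of 15. D8 lay on the side of the DM dogs from the mean of the other control dogs in 7 of the 10 leading probe sets and in 108 of all 193 members.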

How the data were processed

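The deposited values are signal intensities on a linear scale that the authors made with MAS 5.0 from 1 array per dog, scaled so that the trimmed mean (2% at either end) was about 500 on each array. The number of arrays limits the precision, and detection calls and probe-level data were not used here. The RMA normalization that the methods name was not applied to these values.

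The log2 signals of 23913 probe sets were quantile normalized, 16 was added on the linear scale and log2 was taken again. The 77 control probe sets were then left out, and DM and control dogs were compared by group alone in R 4.3.3, using lmFit and eBayes of limma 3.58.1. A two-class test with equal variances on the same values gave the methods' criteria. The steps were tested on simulated data. Symbols came from the platform annotation (138 probe sets had several symbols and 13149 none), and 189 of 193 members matched a current gene identifier, with 0 symbols changed. Gene lists were counted with 1 probe set per gene, the one with the highest mean.

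Members, their roles and the lists were chosen with earlier results of these data known. Named in each role were the probe sets with the largest differences among those past the criteria, up to 4, filled to 2 by the smallest p. A fixed set of well-known genes was added (of these NFKB1 had no member), with the 2 genes of smallest p in each pathway list. Genes of the cell type lists were not all named by that rule. Other members and genes of the cell type lists are named as further examples, chosen after their values were seen. Alternatives were no quantile normalization, median centring, cyclic loess, scaling to the hybridization controls, offsets of 1 and 64, the upper part of levels only, each dog left out, D8 and 0292 left out together, 1 probe set per gene and the other test, which exchanges limma and the two-class test. Scripts ran in Python 3.11.15 with pandas 2.3.3 and matplotlib 3.10.9.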

Additional observations from a re-analysis of the deposited data

Results flagged for a closer look

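In 14 of 106 groups of 4 dogs tested, 1 dog of a named probe set stood far from the other 3 of its group, by the gap to its nearest neighbour as a share of the group's range. Chance alone would flag about 1 group in 20 if the values were independent and normally distributed. The named probe sets come from the same dogs, several belong to 1 gene, and many were picked for their differences. The rate over all probe sets was not computed, so no excess is read from the 14 groups. D8 was such a dog in 4 groups, 1111 in 3, D5, 0292 and 0294 in 2 each, D6 in 1, and D7 and 1087 in 0.

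Among control dogs, D8 had 12.12 in TNFAIP1 (1592783_s_at), where the others had 13.01 to 13.12, and 12.32 in TNFAIP1 (1587008_s_at), where they had 13.06 to 13.17. It also had 6.73 in CD81 (1585249_x_at) against 8.59 to 8.88, and 4.79 in CD14 against 7.44 to 7.92. D5 had 6.52 in IL1B (1583022_x_at) against 4.63 to 4.72, and 5.39 in C3 (1591741_at) against 4.79 to 4.86. D6 had 4.94 in CXCL8 (1582463_at), where the others had 7.73 to 8.02.

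Among DM dogs, 1111 had 7.19 in DLA-DQA1 (1582449_at) against 4.69 to 5.10, 7.81 in CD81 (1584131_x_at) against 4.81 to 5.31, and 4.58 in IL1B (1583018_at) against 7.55 to 7.82. Dog 0292 had 13.57 in CD81 (1585234_x_at) against 9.30 to 9.99, and 7.10 in IFNG against 4.79 to 5.04. Dog 0294 had 7.53 in CCR3 (1595102_at) against 4.50 to 4.67, and 9.28 in CD163 against 12.48 to 12.93.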

How the results depend on the processing

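No paired analysis was possible because the labels give the dogs names and no replicate numbers that the groups share. With each dog left out in turn, members past limma's adjusted p numbered 0 to 6. They were 2 without D8, where 1.22% of all probe sets passed, and 6 without 1111, where 1.77% did. By the criteria of the methods 2 to 6 members were higher (1.04% to 3.11%, against 1.36% to 3.11% of all probe sets). By the same criteria 2 to 10 were lower (1.04% to 5.18%, against 1.17% to 4.16%). At an unadjusted p of limma 8 to 21 were higher (4.15% to 10.9%, against 4.99% to 9.7%). At that p 13 to 24 were lower (6.74% to 12.4%, against 5.71% to 10.7%). The median difference was 0.078 to 0.27. Without D8 and 0292 together, 9 passed limma's adjusted p (4.66%, against 3.88% of all probe sets). Then 3 higher (1.55%, against 4.58%) and 8 lower (4.15%, against 3.49%) met the criteria, and 30 were lower at an unadjusted p (15.5%, against 11.3%). With median centring the counts were 2 past the adjusted p (1.04%, against 0.994%) and 2 higher by the criteria (1.04%, against 1.21%). At an unadjusted p 10 were higher (5.18%, against 4.15%), and the median was -0.10. Under scaling to the hybridization controls they were 57 (29.5%, against 32.2% of all probe sets), 0 higher and 14 lower by the criteria (7.25%, against 10.8%), 0 higher and 79 lower at an unadjusted p (40.9%, against 45.2%), with a median of -1.51. The median was 0.49 without quantile normalization. An offset of 64 gave 5 past the adjusted p (2.59%, against 1.85%). The upper part of levels gave 2 lower (2.11%, against 3.74%) and 5 higher by the criteria (5.26%, against 2.84%). There 9 were higher at an unadjusted p (9.47%, against 7.76%), and the median was -0.044. With 1 probe set per gene 2 were lower by the criteria and 8 at an unadjusted p, and the other test gave 11 lower. These counts have no share of all probe sets beside them, so nothing is read from them. The median of all probe sets was 0.34 without quantile normalization, -0.25 with median centring and -1.65 under the hybridization controls, and lower calls by the criteria made 50.4% of all calls as reported, 70.3% with median centring and 99.2% under the hybridization controls. The cause of these changes was not tested.

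Of 53 named probe sets under the alternatives, 726 values kept their direction and call, 35 gained a call and 59 changed direction, and none had a call to lose. A call here is limma's adjusted p. Gains came only in settings where calls also rose over the whole array, from 0.0168% of all probe sets as reported. That share was 32.2% under scaling to the hybridization controls and 3.88% without D8 and 0292. It was 1.85% with an offset of 64, 0.994% with median centring and at most 1.77% with 1 dog left out. The gains are therefore not read as a result about the named probe sets. Under the hybridization controls the reversed differences were DLA-DQA1 (1600893_at) -0.024, TLR4 -0.25, CCR4 -0.13, IL33 -0.076, CD68 -0.52, CD86 -0.82, STAT4 -0.16, CD81 (1585234_x_at) -1.89, CCL2 -1.36, CXCL8 (1582462_at) -1.03, IL6 -0.82, CD163 -1.03, CD4 (1582832_s_at) -1.004, CD8A -0.76, STAT3 -1.98, C3 (1583409_s_at, 1590080_at, 1590802_s_at, 1591281_at, 1591741_at) -2.07, -1.25, -1.10, -0.58 and -0.41, and IL1B (1582869_at, 1582870_at, 1583018_at, 1583019_x_at, 1583021_s_at) -1.39, -0.46, -0.0083, -0.52 and -0.55. With median centring they were CD81 (1585234_x_at) -0.074, C3 (1583409_s_at) -0.22, IL1B (1582869_at) -0.053 and STAT3 -0.23. With cyclic loess IL1B (1582869_at) had -0.020, and with an offset of 64 TNF had 0.012. Without quantile normalization IL10 had 0.17, TNF 0.27 and CD4 (1582595_at) 0.11. Without D8 and 0292, C3 (1583409_s_at) had -1.18, C3 (1590080_at) -0.31, IL10 0.28, IL1B (1582869_at) -0.33 and TNF 0.39. With 1 dog left out, directions turned within these ranges: TNF -0.36 to 0.20, IL10 -0.68 to 0.33, IL6 -0.51 to 1.25, STAT3 -0.19 to 0.68, CCL2 -0.045 to 0.78, CXCL8 (1582462_at) -0.22 to 0.94, IL1B (1582869_at) -0.36 to 0.66, C3 (1583409_s_at) -0.60 to 1.30, C3 (1590080_at) -0.059 to 0.78, CD81 (1586038_x_at) -0.83 to 0.095 and CD81 (1585249_x_at) -0.98 to 0.48.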
